A study of Mus musculus with 6 samples.

Results

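The genes described here make the sulphated sugar chains heparan sulphate and chondroitin sulphate, or encode the core proteins that carry them. They are 44 genes chosen by symbol, taken from a table of 38561 genes counted by RNA sequencing, of which 24748 had at least 1 count. All 44 symbols were found. Embryonic stem cells (ESCs) of the mouse (strain 129X1/SvJ x 129S1/Sv, passages 13 to 17) were kept without feeder cells on gelatin with serum replacement and leukaemia inhibitory factor. The cultures were sorted on PECAM1, an adhesion protein of undifferentiated ESCs, and on PDGFRa, which binds platelet-derived growth factor. The 3 fractions sequenced were PDGFRa-only (negative for PECAM1), PECAM1-only (negative for PDGFRa) and double-positive. Each fraction had 2 libraries, made from amplified RNA of 100000 sorted events. The series title presents PDGFRa-positive cells as a culture counterpart of primitive endoderm precursors. All groups share the strain, the medium and the passages, and the labels name no genetic change or treatment of any group. The labels do not say whether libraries 1 and 2 came from separate cultures, so each p measures only the spread between these libraries, which may be technical.

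Both chains are built in the Golgi on serines of core proteins, on a short linker of xylose, galactose and glucuronic acid. From there the pathway divides: N-acetylglucosamine commits the chain to heparan sulphate and N-acetylgalactosamine to chondroitin sulphate, and sulphotransferases then decorate it. Heparan sulphate at the cell surface is a co-receptor for fibroblast growth factors and binds Wnt and BMP proteins, and ESCs that cannot make or sulphate it are known to be impaired in leaving the pluripotent state. Primitive endoderm is the tissue beside the early epiblast that lays down a basement membrane rich in heparan sulphate proteoglycans.

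Promoters are shown for the 4 genes that were highest in PDGFRa-only over PECAM1-only by log2 fold change among those with a promoter window, because several results below turn on them. RefSeq (build GRCm38.p6) gave promoter windows for 34 of the 44 genes, 43 windows in all, and the 250 bases before the start were searched. All 4 genes lie on the minus strand, and the sequences run 5′ to 3′ towards the gene. Capitals mark matches, on either strand, to the GATA motif (AGATAA or TGATAA), the octamer (ATGCAAAT), the GC box (GGGCGG) and the TATA motif (TATAAA). Serglycin (Srgn) is shown at chr10:62527446-62527695, Hs3st1 at chr5:39644632-39644881, Chst15 at chr7:132317229-132317478 and Hs3st3b1 at chr11:63922285-63922534. By the GENCODE M21 positions given below, the Hs3st1 window lies inside the gene. A further Srgn window inside the gene and a further Chst15 window across the gene's start are not printed.
Srgn: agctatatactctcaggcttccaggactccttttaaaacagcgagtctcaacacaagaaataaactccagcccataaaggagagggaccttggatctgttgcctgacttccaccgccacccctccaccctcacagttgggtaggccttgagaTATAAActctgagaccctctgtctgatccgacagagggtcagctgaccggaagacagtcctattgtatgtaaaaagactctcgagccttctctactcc
Hs3st1: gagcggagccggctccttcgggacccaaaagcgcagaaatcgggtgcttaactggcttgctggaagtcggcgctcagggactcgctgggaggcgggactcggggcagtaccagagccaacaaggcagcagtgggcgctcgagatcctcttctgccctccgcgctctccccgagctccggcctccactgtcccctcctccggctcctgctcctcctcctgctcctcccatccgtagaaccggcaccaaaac
Chst15: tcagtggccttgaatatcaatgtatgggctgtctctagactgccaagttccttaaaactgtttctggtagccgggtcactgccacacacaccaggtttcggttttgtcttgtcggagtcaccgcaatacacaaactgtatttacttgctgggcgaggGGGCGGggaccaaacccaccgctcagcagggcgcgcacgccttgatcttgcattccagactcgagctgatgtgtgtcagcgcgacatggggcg
Hs3st3b1: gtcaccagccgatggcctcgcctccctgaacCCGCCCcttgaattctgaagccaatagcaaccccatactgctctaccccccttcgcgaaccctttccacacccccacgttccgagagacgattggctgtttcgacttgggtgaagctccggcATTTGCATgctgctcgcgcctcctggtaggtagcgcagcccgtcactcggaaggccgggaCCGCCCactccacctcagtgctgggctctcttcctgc
The Srgn window held a TATA motif, the Chst15 window a GC box, and the Hs3st3b1 window an octamer and 2 GC boxes, while the Hs3st1 window held none of these letters. Over all genes described here, 26 of the 43 windows held a GC box, a larger share than the 32.7% of 32851 RefSeq windows of the same length. The GATA motif stood in 6 of the 43 (windows of B4galt7, Gpc2, Ndst3, Papss1 and Papss2), against 16.6% of all windows. The octamer stood in 2 of the 43, that of Hs3st3b1 and the inner Srgn window, against 1.60% of all windows. The TATA motif stood in 3 of the 43 (Hs6st2, Srgn and Sulf2), against 12.4%. Windows of the genes that were higher in the PDGFRa-only fraction than in the PECAM1-only fraction had a median GC content of 65.0%, those of the lower genes 65.6%, and all windows 52.4%. A match describes letters only and was not tested as a binding site.

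The libraries held 4809661 to 7273669 counts. Levels are in CPM, read counts scaled to library size after TMM normalisation (trimmed mean of M-values), and levels of different genes are compared only per kilobase of exon. Differences are log2 fold changes from edgeR's quasi-likelihood test over all 6 libraries, adjusted by the Benjamini-Hochberg method over 13909 tested genes with a threshold of 0.05. The sorting genes followed the labels, with Pecam1 at 1.51 to 1.57 CPM in the PDGFRa-only, 44.9 to 53.8 in the double-positive and 143 to 166 CPM in the PECAM1-only libraries, and Pdgfra at 509 to 605, 518 to 552 and 1.88 to 2.04 CPM. In the same order, 5 of 5 pluripotency markers were detected and summed to 107 to 149, 281 to 357 and 880 to 905 CPM, and 5 of 6 primitive endoderm markers summed to 6499 to 7255, 4744 to 5184 and 13.2 to 13.4 CPM (the symbol Dab2 stood on more than 1 line and was left out). Fibroblast markers (Thy1 and Postn at 0 in the PDGFRa-only libraries) summed to at most 7.55 CPM in any library and trophoblast markers to at most 4.23 CPM. Among the fibroblast markers, Col1a2 passed as higher by at least 2-fold in both PDGFRa-positive fractions against PECAM1-only. Twist1 did not pass in any comparison, and Col1a1, Col3a1, Thy1 and Postn were too low to be tested. These marker sums move with most results below, and their part in them was not tested. In bulk RNA, fewer cells of a type and less RNA per cell cannot be told apart. The PDGFRa-only libraries differed more from each other than the libraries of the other fractions, with a chi-square per degree of freedom over genes of 25.5 against 5.50 in the PECAM1-only and 5.27 in the double-positive fraction. The test pools the spread over all 6 libraries, so standard errors and p of comparisons with PDGFRa-only may understate the spread of that fraction.

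Taking core protein, enzyme and precursor genes together, more were higher than lower in the PDGFRa-only fraction against the PECAM1-only fraction. Of 44 genes, 41 had enough counts to be tested; 24 passed as higher in PDGFRa-only, 8 as lower, and 9 did not pass. The background is large: of all tested genes 30.1% were higher and 28.8% lower, 59.0% together. The share of higher genes here was 58.5% and of lower genes 19.5%, with a median log2 fold change of 1.08 against 0.01 over all tested genes. The 44 genes were chosen with earlier results of these data known, so these shares describe the set and do not test it. Differences of at least 2-fold made up 21 of the 24 and 5 of the 8, but the matching share over all tested genes was not counted. Between the double-positive and PECAM1-only fractions 18 were higher and 2 lower (background 21.8% and 16.4%, 38.2% together), with a median of 0.72. In PDGFRa-only against double-positive 9 were higher and 3 lower (background 5.94% and 11.7%, 17.6% together), with a median of 0.32. The 3 comparisons share libraries, so their values are given side by side and are not independent of each other.

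**Figure D1:**
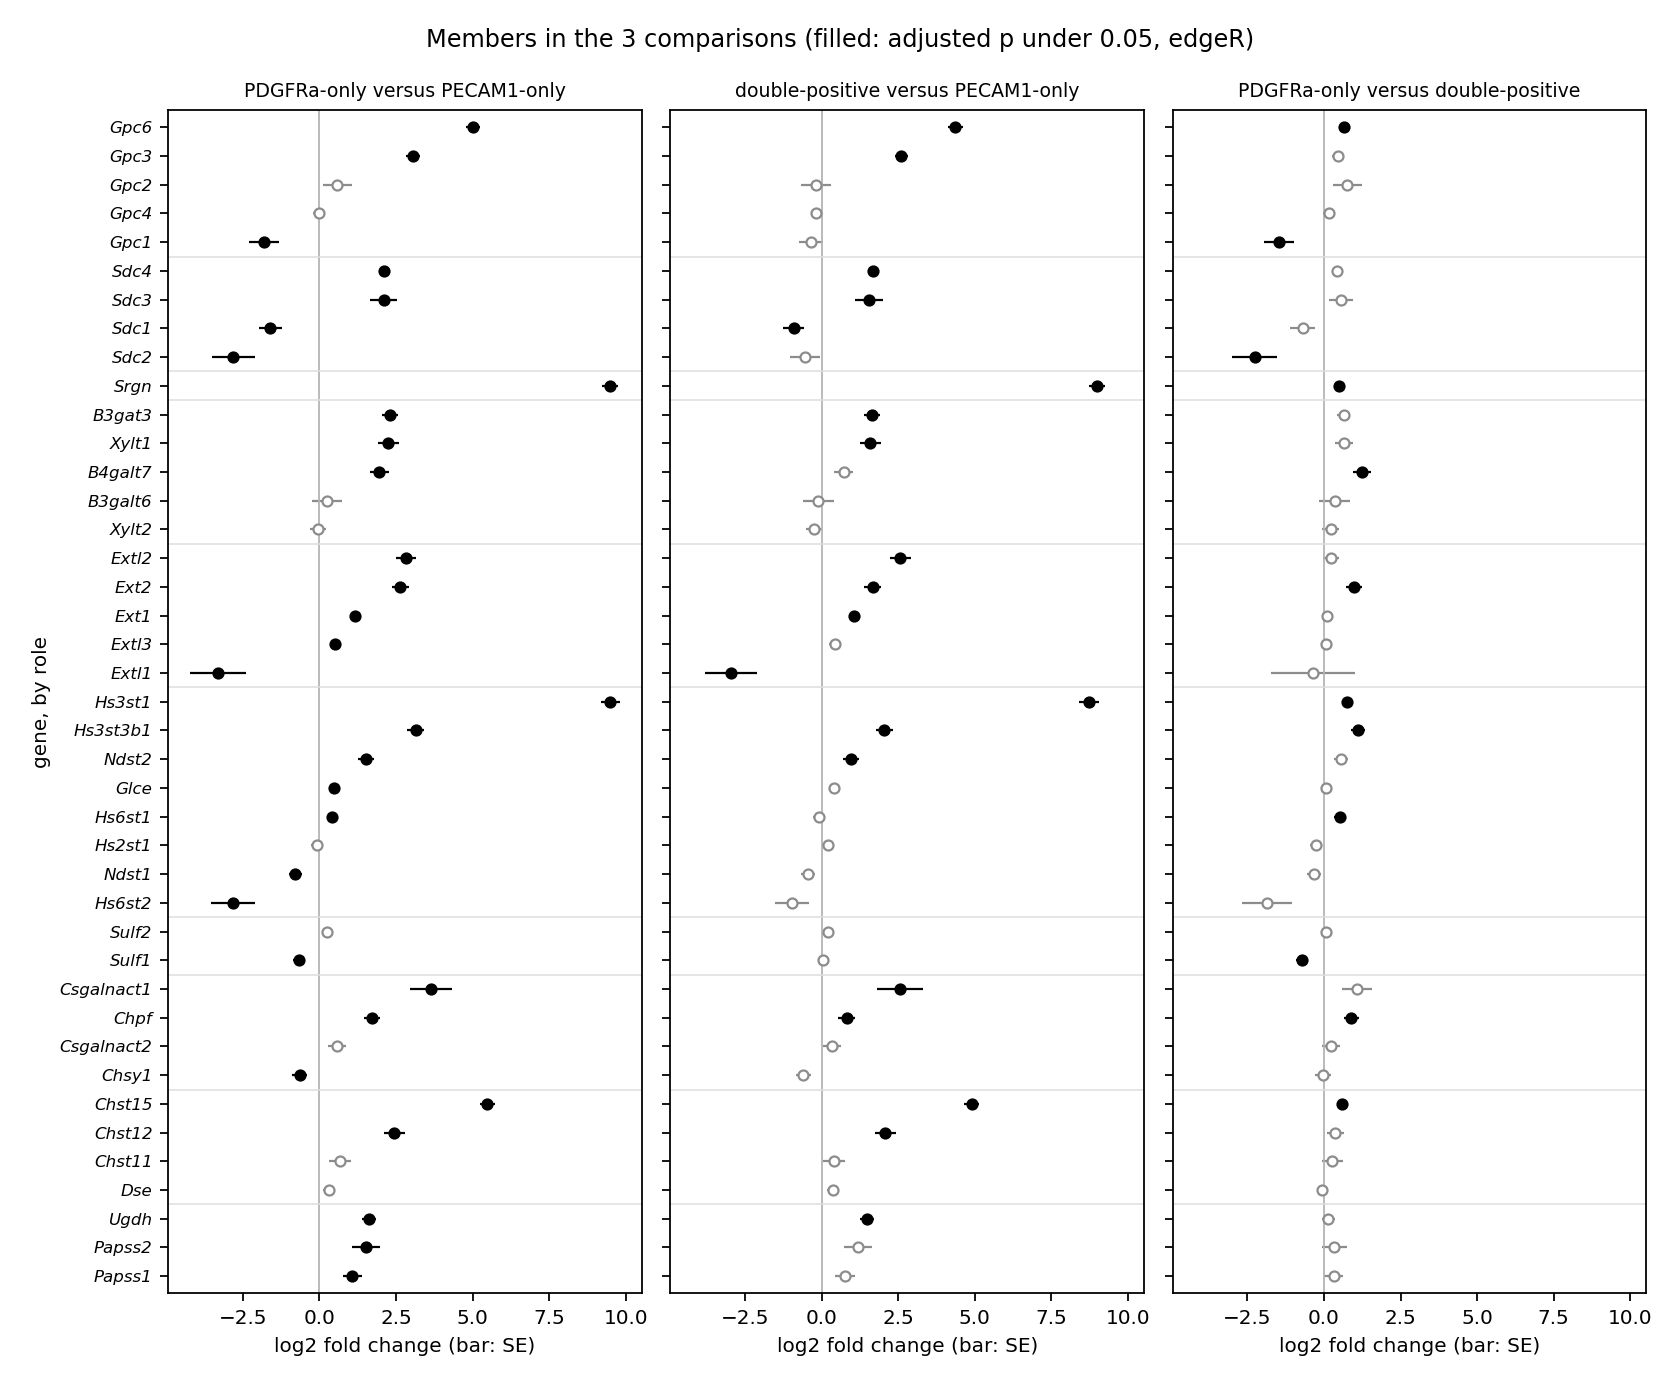
Log2 fold change (x axis, bar: standard error) of the 41 tested genes, ordered by role on the y axis, in the 3 comparisons; filled points passed an adjusted p of 0.05 (edgeR). Srgn and Hs3st1 stand furthest to the right against PECAM1-only, at 9.49 and 9.50 for PDGFRa-only, while most points of the last panel lie near 0.

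Of the 10 core protein genes among the 44, serglycin was the most abundant per kilobase in the PDGFRa-positive fractions. Srgn (ENSMUSG00000020077, chromosome 10, 62493833 to 62527451) encodes a small intracellular proteoglycan known from the storage granules of blood cells, and was originally cloned from a rat yolk sac tumour. Srgn had 1705 and 1914 CPM in the PDGFRa-only libraries, 1273 and 1296 CPM in the double-positive libraries and 2.04 and 2.98 CPM in the PECAM1-only libraries. The 3 fractions did not overlap, and the PECAM1-only libraries were lower by orders of magnitude. The log2 fold change was 9.49 ± 0.26 (SE) between PDGFRa-only and PECAM1-only (edgeR adjusted p = 1.79e-16) and 8.996 ± 0.25 between double-positive and PECAM1-only (4.22e-16). Per kilobase, Srgn reached 824 ± 67.4 CPM (SD, n = 2) in the PDGFRa-only fraction, and the next highest of the 44 genes, Sdc4, 143 ± 2.26. In the double-positive fraction these levels were 585 ± 7.42 and 107 ± 4.83. In the PECAM1-only fraction Srgn had 1.14 ± 0.303 CPM per kilobase. Between PDGFRa-only and double-positive the log2 fold change was 0.49 ± 0.16 (edgeR adjusted p = 0.0384). That call was lost without PDGFRa-only library 2 (adjusted p = 0.0522), either PECAM1-only library (0.0516 and 0.0521) or either double-positive library (0.240 and 0.204, all edgeR). It was also lost with library-size scaling (0.0692), with the 2 fractions fitted alone (0.0688) and with limma on the authors' RPKM values (0.0994).

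Of 5 markers of blood cells that store serglycin, 4 were at 0 and 1 was detected: the mast cell proteases Cpa3 and Mcpt4, the granulocyte enzyme Mpo and the leukocyte antigen Ptprc had 0 counts in all 6 libraries. Kit, a receptor also made by other cells, had 302 to 323 CPM in the PDGFRa-only, 227 to 262 CPM in the double-positive and 141 to 165 CPM in the PECAM1-only libraries. It was higher than in PECAM1-only in PDGFRa-only (log2 fold change 1.03, edgeR adjusted p = 1.09e-05) and in double-positive (0.67, 0.00190), and its part in the Srgn result was not tested. Of 6 endothelial and blood markers, the list sum of 61.0 to 117 CPM in the PDGFRa-only libraries was Cdh5 alone, with Tie1, Emcn, Erg, Ptprc and Tal1 at 0. The same list summed to 45.7 to 64.5 CPM in the double-positive and 0.873 to 1.25 CPM in the PECAM1-only libraries.

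Glypicans are core proteins held to the outer membrane by a lipid anchor, and carry heparan sulphate close to the surface. Of 5 tested, Gpc3 and Gpc6 rose in both PDGFRa-positive fractions against PECAM1-only. Gpc1 was lower in the PDGFRa-only fraction, and Gpc2 and Gpc4 did not pass in any comparison. Against PECAM1-only, the background was 30.1% higher and 28.8% lower for PDGFRa-only, and 21.8% and 16.4% for double-positive. Gpc6 (ENSMUSG00000058571, chromosome 14, 116925315 to 117976544) had 107 and 114 CPM in the PDGFRa-only, 67.7 and 73.5 in the double-positive and 2.91 and 3.92 CPM in the PECAM1-only libraries. All 3 fractions were apart, and PECAM1-only was far below the others. The log2 fold changes against PECAM1-only were 5.02 ± 0.23 for PDGFRa-only (edgeR adjusted p = 1.59e-13) and 4.37 ± 0.23 for double-positive (3.04e-12). PDGFRa-only exceeded double-positive by 0.65 ± 0.17 (edgeR adjusted p = 0.0109), which was lost without double-positive library 1 (0.133) or 2 (0.0556) and in RPKM (limma, 0.0591). Gpc3 (ENSMUSG00000055653, chromosome X, 52272426 to 52613950), whose loss causes an overgrowth syndrome, had 149.96 and 239 CPM in the PDGFRa-only, 122 and 161 in the double-positive and 24.2 and 22.6 CPM in the PECAM1-only libraries. The PDGFRa-positive fractions overlapped each other and lay above both PECAM1-only libraries. Its log2 fold changes were 3.06 ± 0.22 (edgeR adjusted p = 1.93e-10) and 2.60 ± 0.22 (5.02e-09) against PECAM1-only. Between PDGFRa-only and double-positive Gpc3 differed by 0.46 ± 0.20 (edgeR adjusted p = 0.107), and by 0.76 without PDGFRa-only library 1 (0.000954).

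Gpc4, a glypican known from neural and stem cell signalling, had 78.8 and 66.3 CPM in the PDGFRa-only, 67.0 and 62.6 in the double-positive and 83.9 and 62.7 CPM in the PECAM1-only libraries. The fractions overlapped, and the log2 fold change between the single-positive fractions was -0.02 ± 0.18 (edgeR adjusted p = 0.936). Its share of the glypican transcripts was largest in PECAM1-only, where Gpc3 and Gpc6 were low. Gpc4 made up 71.3% ± 4.48 (SD, n = 2) of summed glypican CPM per kilobase in the PECAM1-only fraction, 27.6% ± 4.45 in the double-positive and 23.7% ± 6.87 in the PDGFRa-only fraction. Gpc3 made up 22.7% ± 2.14, 58.5% ± 4.88 and 60.4% ± 9.56 in the same order. The summed level itself was 38.6 ± 5.48, 89.5 ± 10.1 and 118 ± 20.2 CPM per kilobase, and shares and sums were not tested. Gpc1 was a minor glypican throughout and had 2.69 and 0.906 CPM in the PDGFRa-only, 3.62 and 5.63 in the double-positive and 4.804 and 7.06 CPM in the PECAM1-only libraries. Both PDGFRa-only libraries were lowest, and the other fractions overlapped. It was lower in PDGFRa-only than in PECAM1-only (log2 fold change -1.81 ± 0.48, edgeR adjusted p = 0.00279), by -2.66 without PDGFRa-only library 1 and with the call lost without library 2 (-1.12, 0.0574). Against double-positive the Gpc1 difference was -1.46 ± 0.50 (edgeR adjusted p = 0.0463). It was lost without PDGFRa-only library 2 (0.303), PECAM1-only library 1 (0.0539) or 2 (0.0577) or double-positive library 2 (0.284), and was -2.32 without PDGFRa-only library 1. DESeq2 (adjusted p = 0.168), the 2 fractions fitted alone (0.0699) and RPKM (limma, 0.112) lost it too. Exons of Gpc1 overlap those of Ankmy1 on the other strand over 18.9% of their length, and whether counting used the strand is not given in the sources used here. Gpc2, a glypican of developing neurons, had 1.89 to 5.39 CPM over the 6 libraries, with overlapping fractions.

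Syndecans are the transmembrane core proteins, and they divided evenly. Sdc3 and Sdc4 were higher and Sdc1 and Sdc2 lower in PDGFRa-only than in PECAM1-only (background 30.1% and 28.8%). Sdc4 (ENSMUSG00000017009, chromosome 2, 164424247 to 164443887), a component of focal adhesions, had 359.9 and 368 CPM in the PDGFRa-only, 280.2 and 263 in the double-positive and 87.5 and 80.8 CPM in the PECAM1-only libraries. The fractions were apart, and both PDGFRa-positive fractions lay above PECAM1-only, by a log2 fold change of 2.11 ± 0.16 (edgeR adjusted p = 3.16e-10) and 1.69 ± 0.16 (2.09e-08). Between PDGFRa-only and double-positive the difference was 0.42 ± 0.15 (edgeR adjusted p = 0.0566), and it passed without PDGFRa-only library 1 (0.44, 0.0447) and with DESeq2 (0.45, adjusted p = 0.0314). Sdc4 was the main syndecan transcript in every fraction, with 98.5% ± 0.633 (SD, n = 2) of syndecan CPM per kilobase in PDGFRa-only, 97.4% ± 0.952 in double-positive and 88.9% ± 2.57 in PECAM1-only. Sdc3, known from neurons and muscle, had 6.96 and 4.99 CPM, 3.46 and 4.54 CPM and 1.02 and 1.72 CPM in the PDGFRa-only, double-positive and PECAM1-only libraries. It was higher than in PECAM1-only by 2.095 ± 0.45 (edgeR adjusted p = 4.28e-04) and 1.54 ± 0.46 (0.0116), the latter lost without PECAM1-only library 1 (0.125) or double-positive library 2 (0.101) and with DESeq2 (0.06997).

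Sdc1, the syndecan of epithelia, had 5.84 and 2.42 CPM in the PDGFRa-only, 4.41 and 8.29 in the double-positive and 10.8 and 13.2 CPM in the PECAM1-only libraries. Both PECAM1-only libraries lay above the other 4. The log2 fold change was -1.61 ± 0.38 for PDGFRa-only against PECAM1-only (edgeR adjusted p = 0.00105), and -2.28 without PDGFRa-only library 1. For double-positive against PECAM1-only it was -0.91 ± 0.34 (edgeR adjusted p = 0.0422), lost without PECAM1-only library 1 (0.0875) or 2 (0.228) or double-positive library 1 (0.398) and with DESeq2 (0.113). Without PDGFRa-only library 1, Sdc1 also passed between PDGFRa-only and double-positive (-1.38, edgeR adjusted p = 0.0283). Sdc2, known from mesenchymal and vascular cells, had 0.449 and 0.302 CPM in the PDGFRa-only libraries, which rest on 4 counts in all, 1.57 and 2.03 CPM in the double-positive and 1.89 and 3.45 CPM in the PECAM1-only libraries. Here the PDGFRa-only fraction stood below the other fractions, which overlapped each other. Its log2 fold change was -2.81 ± 0.69 against PECAM1-only (edgeR adjusted p = 0.00152) and -2.25 ± 0.74 against double-positive (0.0395). The latter call was lost without any 1 of the 6 libraries (adjusted p of 0.0647 and 0.151 without PDGFRa-only, 0.0546 and 0.0620 without PECAM1-only, 0.100 and 0.203 without double-positive library 1 and 2), and with DESeq2 (0.178) or RPKM (limma, 0.2699).

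**Figure D2:**
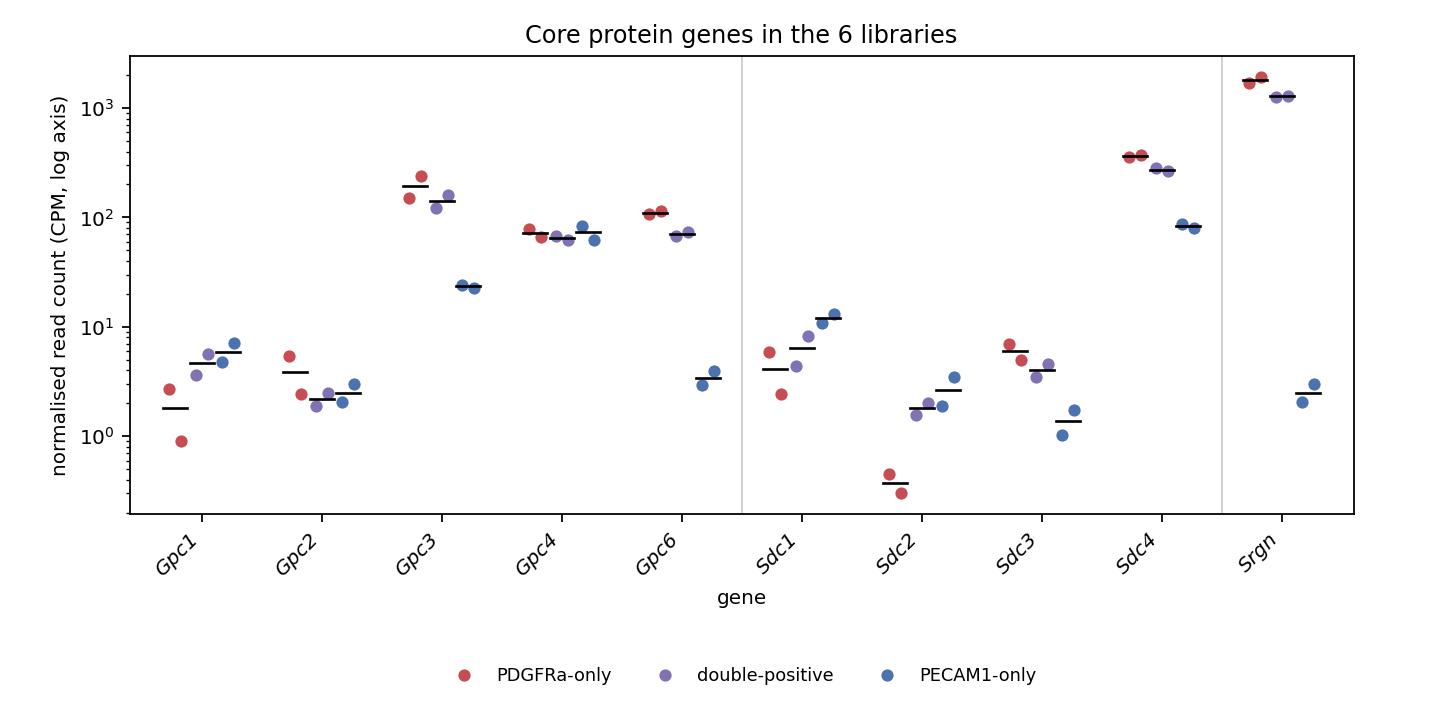
Normalised read count (CPM, log y axis) of the 10 core protein genes in the 6 libraries; each point is 1 library and each bar the mean of the 2 libraries of a fraction. Gpc3, Gpc6, Sdc4 and Srgn are high in both PDGFRa-positive fractions, and Gpc4 is level at 62.6 to 83.9 CPM. Gpc1 and Sdc2 are lowest in the PDGFRa-only fraction. Sdc1 is highest in PECAM1-only, and its PDGFRa-only and double-positive libraries overlap.

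Of the 5 genes for the linker shared by both chains, B3gat3, Xylt1 and B4galt7 were higher in PDGFRa-only than in PECAM1-only (background 30.1%). Xylt2 and B3galt6 did not pass in any comparison. Xylt1 and Xylt2 encode the xylosyltransferases that start every chain. Xylt1 had 17.7 and 10.9 CPM in the PDGFRa-only, 10.2 and 7.67 in the double-positive and 2.62 and 3.29 CPM in the PECAM1-only libraries. The fractions did not overlap, and the log2 fold change against PECAM1-only was 2.25 ± 0.34 (edgeR adjusted p = 7.77e-06) and 1.59 ± 0.35 (9.53e-04). Without PDGFRa-only library 2, Xylt1 also passed between PDGFRa-only and double-positive (0.98, edgeR adjusted p = 0.0232; 0.65 and 0.132 with all libraries). Xylt2 had 8.92 to 11.8 CPM over all 6 libraries. Xylt1 therefore made up 36.2% ± 12.2 (SD, n = 2) of xylosyltransferase CPM per kilobase in PDGFRa-only, 28.9% ± 3.84 in double-positive and 10.2% ± 0.449 in PECAM1-only.

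B4galt7 adds the first galactose of the linker. It had 17.5 and 12.8 CPM in the PDGFRa-only, 6.45 and 6.26 in the double-positive and 3.78 and 3.92 CPM in the PECAM1-only libraries. Both PDGFRa-only libraries were above the rest, with a log2 fold change of 1.96 ± 0.30 against PECAM1-only (edgeR adjusted p = 9.68e-06) and 1.24 ± 0.28 against double-positive (0.00406). Between double-positive and PECAM1-only the difference was 0.72 ± 0.32 (edgeR adjusted p = 0.0822). The PDGFRa-only to double-positive call of B4galt7 was the 1 call of that comparison that held under all 14 other settings tried. B3gat3, the glucuronyltransferase that completes the linker, had 25.4 and 23.9 CPM, 14.3 and 17.2 CPM and 4.66 and 5.33 CPM in the PDGFRa-only, double-positive and PECAM1-only libraries. It was higher than in PECAM1-only by 2.30 ± 0.26 (edgeR adjusted p = 1.37e-07) and 1.66 ± 0.26 (3.17e-05). B3galt6, which adds the second galactose, had 1.57 to 2.87 CPM over the 6 libraries with overlapping fractions.

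Heparan sulphate chains are polymerised by a complex of Ext1 and Ext2, and both genes were higher in each PDGFRa-positive fraction than in PECAM1-only. Ext1 had 130.0 and 162 CPM in the PDGFRa-only, 135 and 137 in the double-positive and 72.8 and 57.9 CPM in the PECAM1-only libraries. Ext2 had 221 and 111 CPM, 82.5 and 84.8 CPM and 20.8 and 32.1 CPM in the same order. For Ext1 the PDGFRa-positive fractions overlapped each other, while for Ext2 the 3 fractions were apart. The Ext1 log2 fold change against PECAM1-only was 1.16 ± 0.17 (edgeR adjusted p = 6.80e-06) for PDGFRa-only and 1.05 ± 0.17 (4.89e-05) for double-positive. That of Ext2 was 2.64 ± 0.28 (edgeR adjusted p = 6.81e-07) and 1.66 ± 0.28 (1.83e-04). Ext2 also passed between PDGFRa-only and double-positive (0.98 ± 0.26, edgeR adjusted p = 0.0158), but not without PDGFRa-only library 1 (0.42, 0.137), which held the highest value, or without double-positive library 1 (0.105) or 2 (0.0599). DESeq2 (adjusted p = 0.123) and RPKM (limma, 0.215) did not call it.

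The exostosin-like genes differed among themselves. Extl2, which can add N-acetylglucosamine to the linker and is known to stop chain growth, had 13.2 and 16.6 CPM in the PDGFRa-only, 12.1 and 13.3 in the double-positive and 1.60 and 2.67 CPM in the PECAM1-only libraries. Both PDGFRa-positive fractions were above PECAM1-only, by 2.82 ± 0.33 (edgeR adjusted p = 2.41e-07) and 2.57 ± 0.33 (2.17e-06). Extl3, the enzyme that commits the linker to heparan sulphate, had 70.9 and 74.0 CPM, 69.4 and 67.6 CPM and 42.5 and 58.8 CPM in the PDGFRa-only, double-positive and PECAM1-only libraries. Its log2 fold change of 0.52 ± 0.18 between the single-positive fractions (edgeR adjusted p = 0.0194) was lost without PECAM1-only library 1 (0.32, 0.252). It was also lost with DESeq2 (0.48, adjusted p = 0.0564), upper-quartile scaling (0.31, 0.144), library-size scaling (0.23, 0.281) and RPKM (0.07, limma, 0.711). For Extl3 between double-positive and PECAM1-only the log2 fold change was 0.44 (edgeR adjusted p = 0.0642), and it passed without PDGFRa-only library 1 (0.0216) or 2 (0.0241) or PECAM1-only library 2 (0.70, 0.0241), with no count filter (0.0441) or with the 2 fractions fitted alone (0.0300). Extl1 went the other way on few counts: it had 0 and 0.302 CPM in the PDGFRa-only libraries (2 counts), 0 and 0.469 in the double-positive (3 counts) and 2.04 and 1.88 CPM in the PECAM1-only libraries. Its ratio of PECAM1-only to PDGFRa-only was 10.9 (95% counting interval 2.72 to 94.5, edgeR adjusted p = 0.00414) and of PECAM1-only to double-positive 8.34 (2.56 to 43.0, 0.00820). DESeq2 did not call Extl1 between PDGFRa-only and PECAM1-only (adjusted p = 0.0616). The fitted Extl1 log2 fold change against PECAM1-only was -2.61 and -6.59 without PDGFRa-only library 1 and 2 (-3.31 with both). The double-positive call was lost without PECAM1-only library 1 (edgeR adjusted p = 0.0734) or double-positive library 1 (0.161), and the fitted value moved from -2.96 to -6.60 without double-positive library 2.

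Modification of the heparan chain begins with N-deacetylase/N-sulphotransferases. Ndst2 was higher and Ndst1 lower in PDGFRa-only than in PECAM1-only. Ndst1 had 14.1 and 13.0 CPM in the PDGFRa-only, 17.9 and 16.3 in the double-positive and 22.7 and 23.8 CPM in the PECAM1-only libraries. Ndst2, known as the main form in mast cells, had 17.5 and 18.0 CPM, 11.96 and 12.05 CPM and 6.26 and 6.12 CPM in the same order. Neither gene overlapped between fractions, and they ran in opposite order. The log2 fold change between the single-positive fractions was -0.78 ± 0.22 for Ndst1 (edgeR adjusted p = 0.00494) and 1.52 ± 0.25 for Ndst2 (2.94e-05). Between double-positive and PECAM1-only it was -0.44 ± 0.22 for Ndst1 (edgeR adjusted p = 0.112) and 0.95 ± 0.26 for Ndst2 (0.00582), with Ndst1 passing under upper-quartile scaling, library-size scaling or RPKM (adjusted p of 0.0186 to 0.0285). Ndst2 made up 70.4% ± 1.64 (SD, n = 2) of NDST CPM per kilobase in PDGFRa-only, 56.1% ± 1.83 in double-positive and 32.4% ± 0.973 in PECAM1-only. The summed NDST level was 5.54 ± 0.0258, 4.71 ± 0.128 and 4.20 ± 0.0570 CPM per kilobase. Ndst3 and Ndst4 had 2 counts each, all in PECAM1-only libraries, and 0 in the other 4, where a count of 0 allows up to 0.453 to 0.673 CPM.

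The 3-O-sulphotransferases add a rare sulphate group, and the enzyme gene with the largest difference was among them. Hs3st1 (ENSMUSG00000051022, chromosome 5, 39613935 to 39755475), known for making the antithrombin-binding site of heparin, had 186 and 172 CPM in the PDGFRa-only, 100.4 and 110.0 in the double-positive and 0.291 and 0.157 CPM in the PECAM1-only libraries. The PECAM1-only values rest on 3 counts in all. The ratio to PECAM1-only was 784 (95% counting interval 268 to 3806, edgeR adjusted p = 2.19e-15) for PDGFRa-only and 465 (159 to 2255, 1.68e-14) for double-positive. The PDGFRa-positive fractions were also apart (log2 fold change 0.77 ± 0.16, edgeR adjusted p = 0.00198). Hs3st3b1 (ENSMUSG00000070407, chromosome 11, 63885792 to 63922290) had 51.9 and 36.1 CPM, 20.1 and 20.5 CPM and 3.78 and 6.12 CPM in the PDGFRa-only, double-positive and PECAM1-only libraries. It was higher than in PECAM1-only by 3.14 ± 0.27 (edgeR adjusted p = 2.58e-09) and 2.04 ± 0.28 (4.94e-06), and higher in PDGFRa-only than in double-positive by 1.10 ± 0.23 (0.00206). These calls of Hs3st1 and Hs3st3b1 between PDGFRa-only and double-positive held without each library in turn and were lost in the authors' RPKM values (log2 fold change 0.59 and 0.77).

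Hs3st3a1 is a close paralogue of Hs3st3b1, and reads may be split between them. It was too low to be tested, with 2.92 and 1.06 CPM in the PDGFRa-only, 1.26 and 0.939 in the double-positive and 0.291 and 0.157 CPM in the PECAM1-only libraries. Its ratio to PECAM1-only, which had 3 counts, was 7.97 (95% counting interval 2.37 to 41.9) for PDGFRa-only and 4.85 (1.35 to 26.3) for double-positive, and 32.9% of its exon length lies over F930015N05Rik on the other strand. Together the 3 genes reached 89.7 ± 6.86 CPM per kilobase in PDGFRa-only, 51.6 ± 3.04 in double-positive and 1.17 ± 0.269 in PECAM1-only. Hs3st1 made up 89.5% ± 2.1 and 91.4% ± 0.517 of the sum in the PDGFRa-positive fractions, and Hs3st3b1 made up 85.5% ± 9.08 of the small PECAM1-only sum.

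Of the other modifying enzymes, Glce and Hs6st1 were higher and Hs6st2 lower in PDGFRa-only than in PECAM1-only, and Hs2st1 did not pass. Glce, the epimerase that turns glucuronic into iduronic acid, had 78.1 and 75.4 CPM in the PDGFRa-only, 77.9 and 67.8 in the double-positive and 56.5 and 53.0 CPM in the PECAM1-only libraries. Its log2 fold change of 0.49 ± 0.17 between the single-positive fractions (edgeR adjusted p = 0.0182) was lost without PECAM1-only library 1 (0.0507) or 2 (0.103), and with DESeq2 (0.0536), upper-quartile (0.156) or library-size scaling (0.318). That of 0.41 for double-positive (edgeR adjusted p = 0.0604) passed without PDGFRa-only library 1 (0.0237) or 2 (0.0249) or with the 2 fractions fitted alone (0.0264). Hs2st1, the single 2-O-sulphotransferase, had 44.9 to 74.2 CPM over the 6 libraries with overlapping fractions, with no call in any comparison. Hs6st1, the main 6-O-sulphotransferase here, had 88.5 and 69.6 CPM, 54.1 and 56.0 CPM and 57.6 and 59.6 CPM in the PDGFRa-only, double-positive and PECAM1-only libraries. It was higher in PDGFRa-only by 0.43 ± 0.18 against PECAM1-only (edgeR adjusted p = 0.0416) and 0.52 ± 0.18 against double-positive (0.0469). The first Hs6st1 call was lost without any library other than PDGFRa-only library 2 (edgeR adjusted p of 0.231 without PDGFRa-only library 1, 0.145 and 0.107 without PECAM1-only and 0.0501 and 0.0580 without double-positive library 1 and 2). The other was lost in the same leave-outs (0.226, 0.0709, 0.07002, 0.245 and 0.176), and the first turned to -0.025 in the RPKM values (limma, 0.866). DESeq2, both other scalings, a minimum count of 50 and the 2 fractions fitted alone lost both calls (adjusted p of 0.0765 to 0.504 for the first and 0.0534 to 0.0885 for the other). Hs6st2 had 0 and 0.604 CPM in the PDGFRa-only libraries (4 counts), 1.10 and 1.56 in the double-positive and 2.77 and 2.51 CPM in the PECAM1-only libraries. PDGFRa-only was lower than PECAM1-only for Hs6st2 (fitted log2 fold change -2.82 ± 0.73, edgeR adjusted p = 0.00229), by -2.08 without PDGFRa-only library 1 and -7.01 without library 2. Without that library Hs6st2 also passed against double-positive (-6.05, edgeR adjusted p = 0.0327).

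Sulf1 and Sulf2 are secreted enzymes that remove 6-O-sulphate from finished heparan chains. Sulf2 was among the most abundant genes of the set in every fraction, with 320.4 and 305 CPM in the PDGFRa-only, 295 and 307 in the double-positive and 255 and 269 CPM in the PECAM1-only libraries. It did not pass in any comparison (0.26 ± 0.15 between the single-positive fractions, edgeR adjusted p = 0.151). Per kilobase Sulf2 led the set in PECAM1-only, with 44.6 ± 1.65 CPM (SD, n = 2), ahead of Sdc4 with 33.0 ± 1.87 and Gpc4 with 27.6 ± 5.64. Sulf1 had 42.7 and 45.5 CPM in the PDGFRa-only, 71.8 and 74.6 in the double-positive and 75.8 and 65.4 CPM in the PECAM1-only libraries. Only the PDGFRa-only fraction of Sulf1 stood apart, below the others by -0.68 ± 0.17 against PECAM1-only (edgeR adjusted p = 0.00212) and -0.73 ± 0.17 against double-positive (0.00571). The latter was lost without double-positive library 2 (-0.70, 0.0504).

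**Figure D3:**
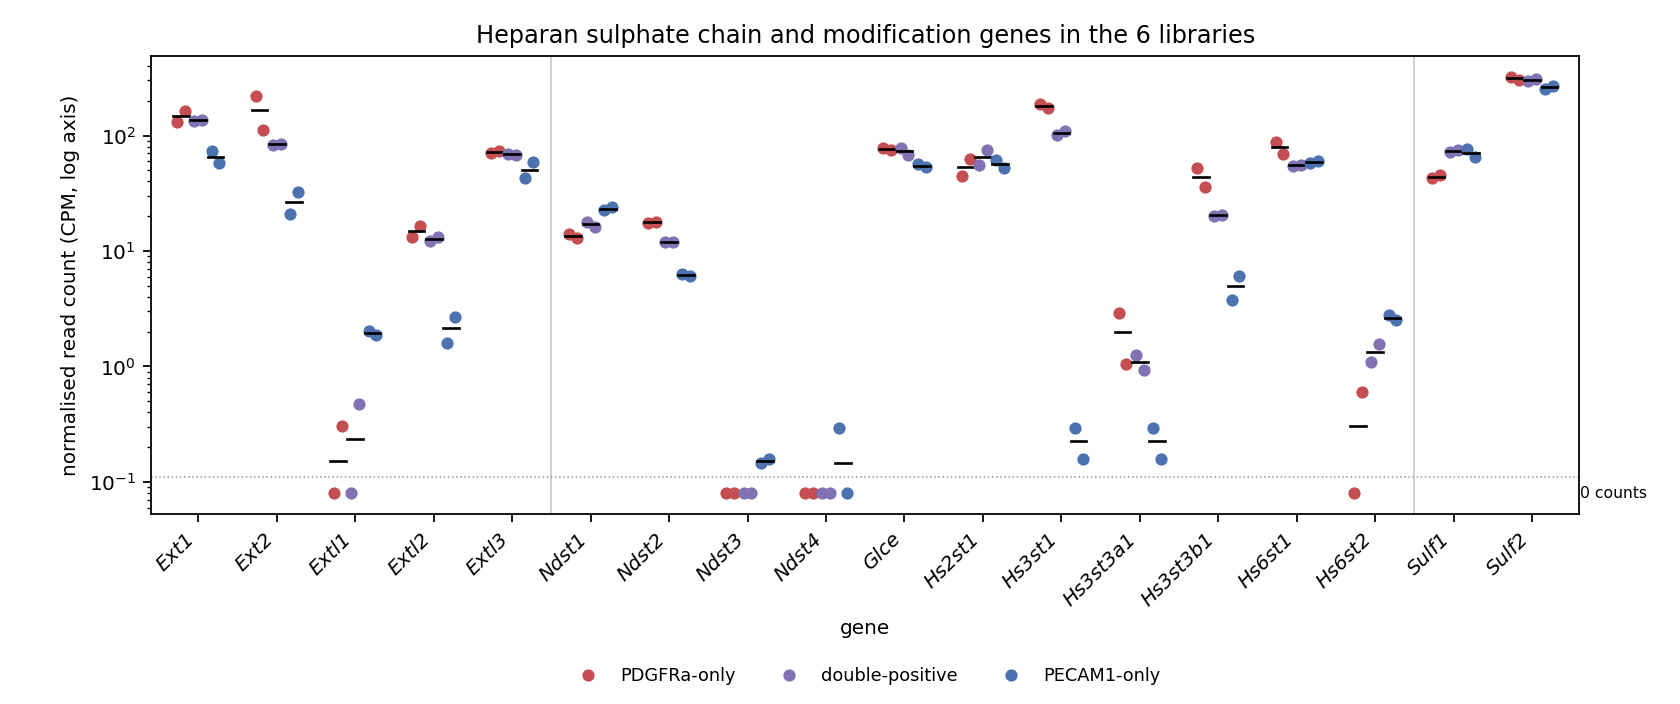
Normalised read count (CPM, log y axis; points at the bottom had 0 counts) of the 18 heparan chain, modification and sulphatase genes in the 6 libraries; bars are means of 2 libraries. Hs3st1 spans 0.157 to 186 CPM, Ndst1 and Ndst2 run in opposite order, and Hs2st1 and Sulf2 are near level.

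Of the 4 genes that build the chondroitin chain, Chpf and Csgalnact1 were higher in both PDGFRa-positive fractions (background 30.1% and 21.8%). Chsy1 was lower in PDGFRa-only (background 28.8%), and Csgalnact2 did not pass. Chpf, the polymerising partner of the synthase, had 37.5 and 24.0 CPM in the PDGFRa-only, 15.9 and 16.7 in the double-positive and 7.13 and 11.4 CPM in the PECAM1-only libraries. Its log2 fold change against PECAM1-only was 1.72 ± 0.27 (edgeR adjusted p = 1.33e-05) for PDGFRa-only. For double-positive it was 0.82 ± 0.28 (edgeR adjusted p = 0.0233), lost without PECAM1-only library 1 (0.261) or double-positive library 2 (0.0808). DESeq2 (0.0846), upper-quartile scaling (0.0678), library-size scaling (0.0855) and RPKM (limma, 0.0803) lost it too. The fractions of Chpf were apart, and PDGFRa-only exceeded double-positive by 0.90 ± 0.26 (edgeR adjusted p = 0.0181), lost without PDGFRa-only library 1 (0.140) or double-positive library 1 (0.103) or 2 (0.0611) and in RPKM (limma, 0.155). Chsy1, a chondroitin synthase, had 11.4 and 8.76 CPM, 9.76 and 10.8 CPM and 15.4 and 15.8 CPM in the PDGFRa-only, double-positive and PECAM1-only libraries. Both PECAM1-only libraries were highest, but the Chsy1 call (-0.65 ± 0.25, edgeR adjusted p = 0.0328) was lost without PDGFRa-only library 2 (0.210) or any library of the other fractions (0.107 and 0.116 without PECAM1-only, 0.0575 and 0.0511 without double-positive library 1 and 2), with DESeq2 (0.111) and with no count filter (0.0599). Chsy1 in double-positive against PECAM1-only (-0.60, edgeR adjusted p = 0.0583) passed without PDGFRa-only library 1 (0.0355) or 2 (0.0338), and with both other scalings, a minimum count of 50, the 2 fractions fitted alone or RPKM (0.0113 to 0.0392).

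Csgalnact1, which adds the first N-acetylgalactosamine, had 2.24 and 5.44 CPM in the PDGFRa-only, 1.89 and 1.88 in the double-positive and 0.146 and 0.470 CPM (4 counts) in the PECAM1-only libraries. It was higher than in PECAM1-only by 3.64 ± 0.69 (edgeR adjusted p = 1.13e-04) and 2.56 ± 0.76 (0.0109). The first value was 2.82 without PDGFRa-only library 2, and 3.04 and 4.60 without PECAM1-only library 1 and 2. The other was lost without PECAM1-only library 1 (edgeR adjusted p = 0.119), with DESeq2 (0.0530) and in RPKM (limma, 0.116), and rose to 3.53 without library 2. Without PDGFRa-only library 1, Csgalnact1 also passed between PDGFRa-only and double-positive (1.53, edgeR adjusted p = 0.0345). Its paralogue Csgalnact2 had 5.49 to 10.3 CPM over the 6 libraries, and passed between the single-positive fractions in RPKM alone (0.44, limma adjusted p = 0.0498).

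Among the chondroitin sulphation genes Chst15 and Chst12 were higher in both PDGFRa-positive fractions, and Chst11 and Dse did not pass. Chst15 (ENSMUSG00000030930, chromosome 7, 132235780 to 132317228) encodes the enzyme that adds a further sulphate to already sulphated N-acetylgalactosamine, giving the highly sulphated E form of the chain that is known from mast cell serglycin. Chst15 had 166 and 169 CPM in the PDGFRa-only, 103 and 118 in the double-positive and 2.47 and 5.02 CPM in the PECAM1-only libraries. The 3 fractions were apart, and the log2 fold change against PECAM1-only was 5.49 ± 0.25 (edgeR adjusted p = 1.13e-13) for PDGFRa-only and 4.89 ± 0.25 (1.30e-12) for double-positive. Without PECAM1-only library 2 these were 6.08 and 5.49. Between PDGFRa-only and double-positive Chst15 differed by 0.59 ± 0.18 (edgeR adjusted p = 0.0259), lost without double-positive library 1 (0.225) or 2 (0.0614) and in RPKM (limma, 0.228). Chst12, a 4-O-sulphotransferase, had 13.5 and 9.97 CPM, 9.13 and 8.76 CPM and 2.18 and 2.04 CPM in the PDGFRa-only, double-positive and PECAM1-only libraries. It was higher than in PECAM1-only by 2.44 ± 0.34 (edgeR adjusted p = 2.70e-06) and 2.07 ± 0.34 (5.51e-05).

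Chst11, the other 4-O-sulphotransferase, had 5.16 and 6.65 CPM, 4.25 and 5.63 CPM and 3.35 and 4.08 CPM in the PDGFRa-only, double-positive and PECAM1-only libraries, with a log2 fold change of 0.69 ± 0.36 between the single-positive fractions (edgeR adjusted p = 0.108). Chst15 made up 80.5% ± 2.39 (SD, n = 2) of the CPM per kilobase of the 3 sulphotransferases in PDGFRa-only, 77.8% ± 1.41 in double-positive and 25.5% ± 8.76 in PECAM1-only. Their sum was 30.8 ± 0.623, 21.1 ± 1.65 and 2.12 ± 0.316 CPM per kilobase. Dse, the epimerase that makes dermatan sulphate, had 59.3 and 87.0 CPM, 68.8 and 83.4 CPM and 60.3 and 58.2 CPM in the same order of fractions, with PDGFRa-only overlapping both others. Dse passed against PECAM1-only in leave-outs: by 0.57 for PDGFRa-only without PDGFRa-only library 1 (edgeR adjusted p = 0.00720), and by 0.37 for double-positive without PDGFRa-only library 1 (0.0455) or 2 (0.0497).

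The sulphate and sugar donors come from 3 genes, all higher in PDGFRa-only than in PECAM1-only (background 30.1%). The calls of Papss1 and Papss2 were lost in some settings, and that of Ugdh was kept in all. Ugdh, which makes UDP-glucuronic acid, had 51.6 and 89.9 CPM in the PDGFRa-only, 59.95 and 69.6 in the double-positive and 22.7 and 23.4 CPM in the PECAM1-only libraries. The PDGFRa-positive fractions overlapped each other and lay above PECAM1-only, by 1.63 ± 0.22 (edgeR adjusted p = 2.74e-06) and 1.49 ± 0.22 (1.88e-05). Papss1 and Papss2 make the sulphate donor PAPS for all sulphotransferases. Papss1 had 13.9 and 33.8 CPM, 18.1 and 21.1 CPM and 9.17 and 14.0 CPM in the PDGFRa-only, double-positive and PECAM1-only libraries. PDGFRa-only library 1 lay just below PECAM1-only library 2, so the single-positive fractions overlapped. The Papss1 log2 fold change of 1.08 ± 0.32 (edgeR adjusted p = 0.00780) was lost without PDGFRa-only library 2 (0.28, 0.446) or PECAM1-only library 1 (0.82, 0.0915) and in RPKM (0.52, limma, 0.263). Papss1 for double-positive (0.77, edgeR adjusted p = 0.0720) passed without PDGFRa-only library 1 (0.00357) or 2 (0.00519) or PECAM1-only library 2 (0.0485), with no count filter (0.00610) or with the 2 fractions fitted alone (0.00773). Without PDGFRa-only library 1 PDGFRa-only exceeded double-positive for Papss1 (0.79, edgeR adjusted p = 0.0177).

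Papss2 had 6.73 and 8.46 CPM in the PDGFRa-only, 2.68 and 9.39 in the double-positive and 2.91 and 2.35 CPM in the PECAM1-only libraries. The double-positive libraries stood far apart, 1 at the PECAM1-only level and 1 above PDGFRa-only. Papss2 was higher in PDGFRa-only than in PECAM1-only by 1.53 ± 0.46 (edgeR adjusted p = 0.00745), lost without PDGFRa-only library 2 (0.0567) or PECAM1-only library 2 (0.0526) and in RPKM (limma, 0.0605). For double-positive (1.19, edgeR adjusted p = 0.0505) Papss2 passed without PDGFRa-only library 1 (0.0462) or 2 (0.0468) or double-positive library 1 (1.85, 0.00111), and with no count filter (0.00858).

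**Figure D4:**
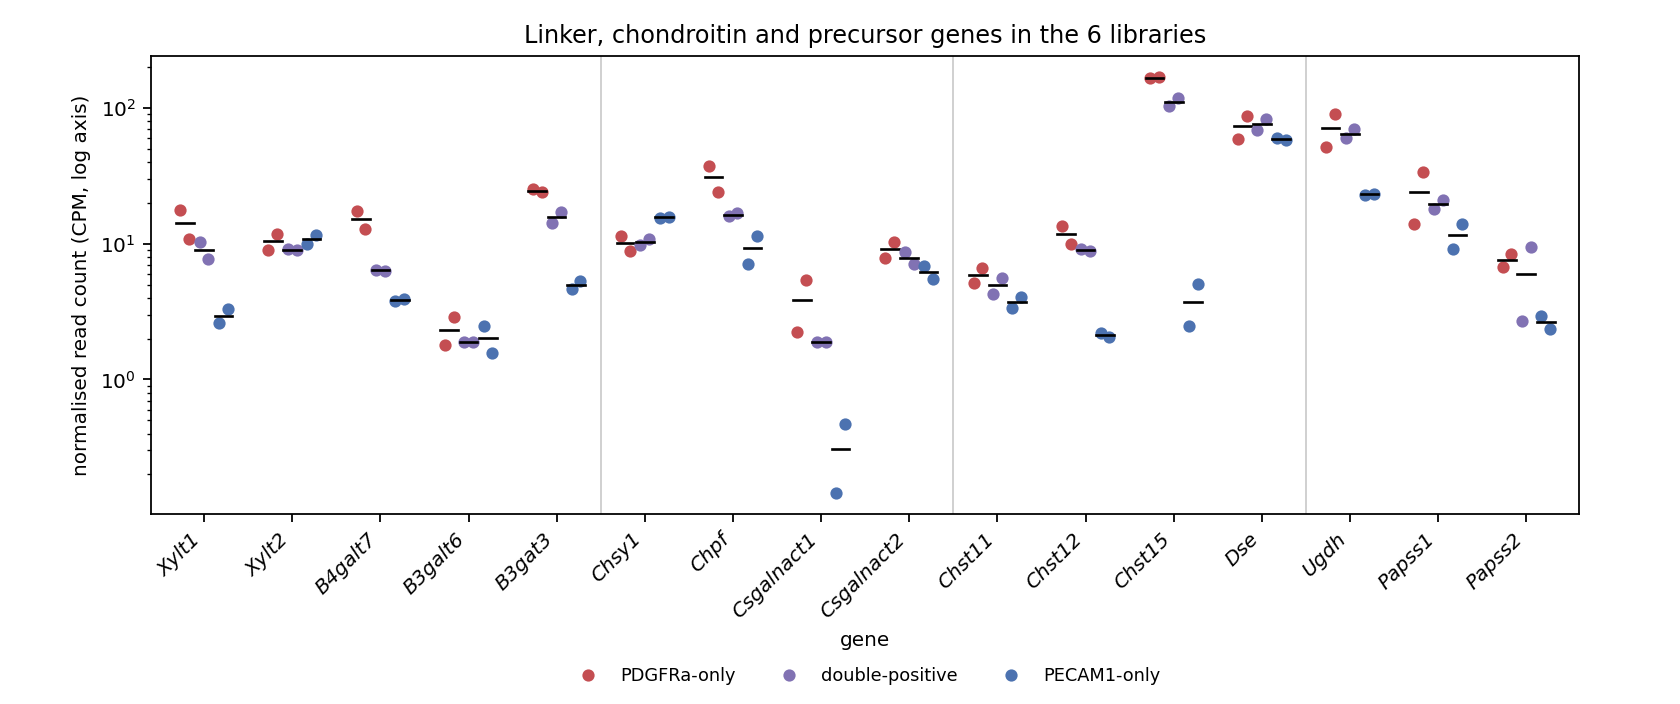
Normalised read count (CPM, log y axis) of the 16 linker, chondroitin and precursor genes in the 6 libraries; each point is 1 library and bars are means of 2. Chst15 lies at 103 to 169 CPM in the PDGFRa-positive libraries and at 2.47 and 5.02 in PECAM1-only, while Xylt2 and B3galt6 are near level.

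Across the set, 7 genes were higher in PDGFRa-only than in double-positive and higher in double-positive than in PECAM1-only: Gpc6, Srgn, Ext2, Hs3st1, Hs3st3b1, Chpf and Chst15. All 7 calls between PDGFRa-only and double-positive were lost in the authors' RPKM values, and only those of Hs3st1 and Hs3st3b1 held in all other settings. A further 11 were higher in both PDGFRa-positive fractions and did not pass between them, among them Gpc3, Sdc4, Xylt1, Ext1 and Ugdh. How many of all tested genes show either pattern was not counted, so neither number can be set against a background. The double-positive mean lay between the other means for 33 of 41 tested genes (80.5%), against 76.1% of all 13909 tested genes, so this placing was near the background. It was highest for Sulf1, Dse and Hs2st1 and lowest for Xylt2, Gpc2, Gpc4, Hs6st1 and B3galt6.

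**Figure D5:**
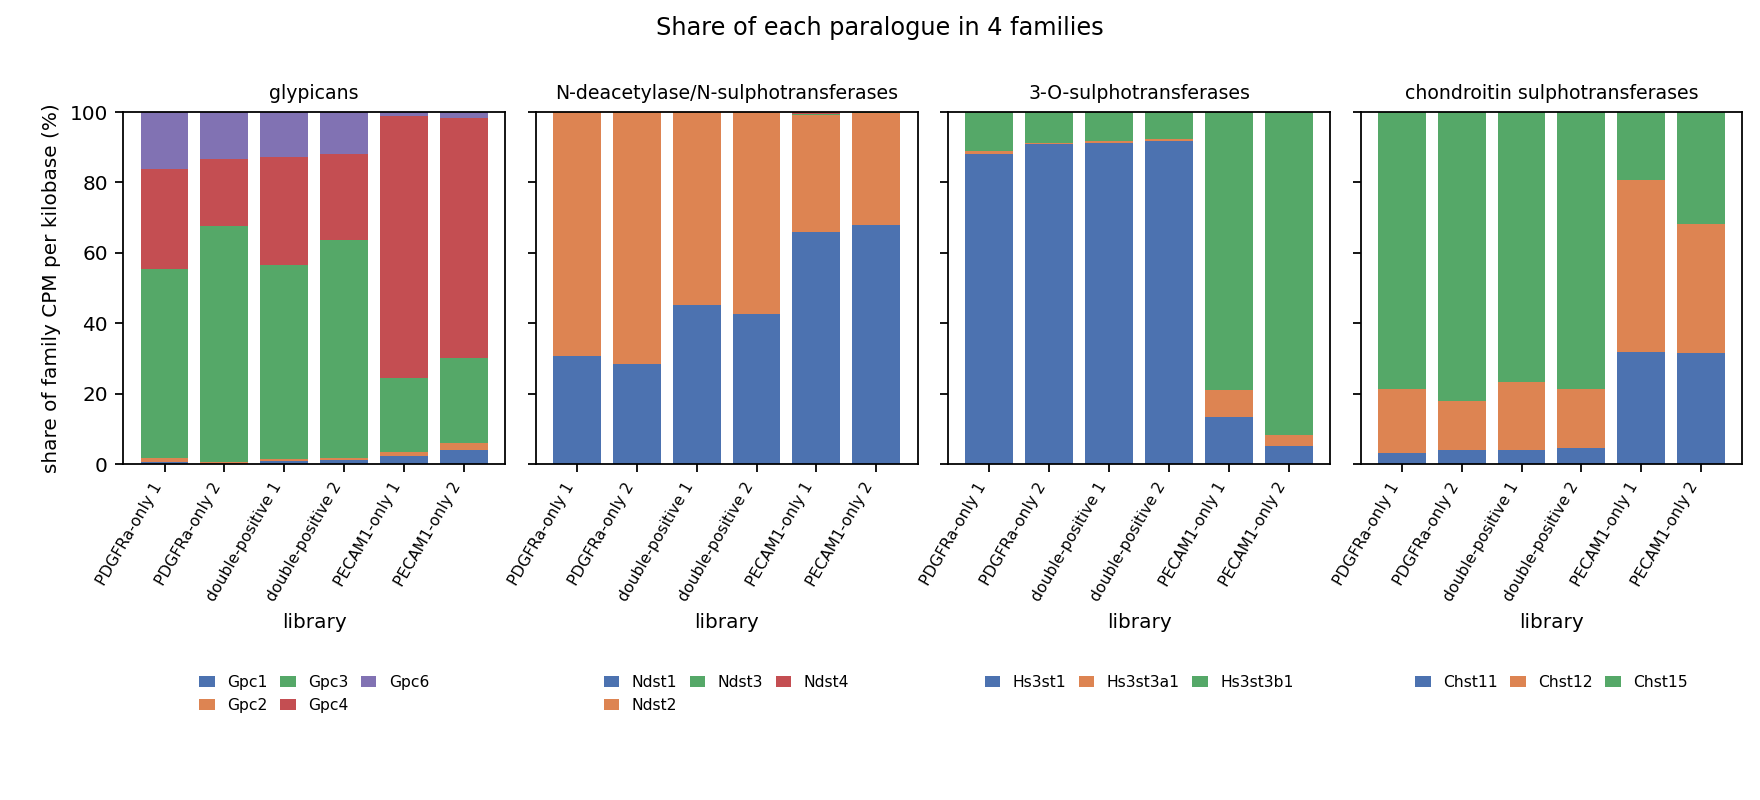
Share of each paralogue in summed CPM per kilobase (y axis, %) of 4 families in each of the 6 libraries (x axis). In the PDGFRa-positive libraries, but not in PECAM1-only, Gpc3 exceeds Gpc4, Ndst2 exceeds Ndst1, and Hs3st1 and Chst15 take most of their families. Before division by exon length, Ndst1 has more CPM than Ndst2 in the double-positive libraries.

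Further genes of the pathway were read from lists that share no gene with the 44. These lists too were chosen with earlier results of these data known, so their counts are not separate support. Of 23 enzyme and transporter genes in the table, 15 were tested and 11 were higher and 1 lower in PDGFRa-only than in PECAM1-only (background 30.1% and 28.8%). For double-positive against PECAM1-only 10 were higher and 5 did not pass (background 21.8% and 16.4%). In PDGFRa-only against double-positive 2 were higher and 13 did not pass (background 5.94% and 11.7%). Chpf2, a second polymerising factor, had 11.9 and 16.8 CPM in PDGFRa-only and 1.16 and 0.784 CPM in PECAM1-only libraries (log2 fold change 3.86, edgeR adjusted p = 2.51e-08). Chst14, the dermatan 4-O-sulphotransferase, had 12.8 and 15.4 CPM against 0.582 and 1.41 CPM (3.82, edgeR adjusted p = 5.84e-08). Slc26a2, the sulphate transporter of the plasma membrane, had 547 and 624 CPM against 96.8 and 98.8 CPM (2.58, edgeR adjusted p = 2.01e-11). The 1 lower gene, named after its values were seen, was the chondroitin 6-O-sulphotransferase Chst3, with 1.35 and 2.27 CPM against 4.66 and 7.997 CPM (-1.74, edgeR adjusted p = 0.00192).

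Of 19 further core protein genes, 12 were tested: 7 were higher and 5 lower in PDGFRa-only than in PECAM1-only (background 30.1% and 28.8%). In double-positive against PECAM1-only 6 were higher and 2 lower (background 21.8% and 16.4%), and in PDGFRa-only against double-positive 1 and 3 (background 5.94% and 11.7%). Tgfbr3 (betaglycan, a co-receptor for TGF-beta) had 69.4 and 84.0 CPM in PDGFRa-only and 4.66 and 8.94 CPM in PECAM1-only libraries (log2 fold change 3.51, edgeR adjusted p = 4.22e-10). Spock1 (testican) differed by 4.46 (edgeR adjusted p = 2.78e-09), and biglycan (Bgn), with 1 count in PECAM1-only, by a ratio of 126 (95% counting interval 22.1 to 5008). Col18a1, a basement membrane collagen that carries heparan sulphate, went the other way, with 1.12 and 1.51 CPM in PDGFRa-only, 19.7 and 27.7 in double-positive and 47.0 and 58.5 CPM in PECAM1-only libraries (-5.27, edgeR adjusted p = 1.21e-11). Versican (Vcan) differed by -1.49 and agrin (Agrn) by -0.43 (edgeR adjusted p = 2.00e-06 and 0.0308). Perlecan (Hspg2), singled out after its values were seen, had 2609 and 2283 CPM in PDGFRa-only, 1642 and 1695 in double-positive and 205 and 321 CPM in PECAM1-only libraries. Per kilobase its 171 ± 16.1 CPM (SD, n = 2) in PDGFRa-only lay between those of Srgn and Sdc4.

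Of 17 genes of chain degradation and shedding, 15 were tested. Here 12 were higher and 1 lower in PDGFRa-only than in PECAM1-only (background 30.1% and 28.8%), and 11 and 1 in double-positive against PECAM1-only (background 21.8% and 16.4%). In PDGFRa-only against double-positive 4 were higher and 11 did not pass (background 5.94% and 11.7%). Heparanase (Hpse), which cuts heparan sulphate, had 15.04 and 27.0 CPM in PDGFRa-only, 11.5 and 22.2 in double-positive and 0.291 and 0.784 CPM in PECAM1-only libraries (5.28 between the single-positive fractions, edgeR adjusted p = 2.44e-08). The lysosomal enzyme gene Hexa differed by 2.98 (edgeR adjusted p = 2.59e-11). The 1 lower gene, named after its values were seen, was Notum, a secreted Wnt-inactivating enzyme, with 0 and 0.151 CPM (1 count) in PDGFRa-only and 5.24 and 3.45 CPM in PECAM1-only libraries, a ratio of PECAM1-only to PDGFRa-only of 48.5 (95% counting interval 8.37 to 1948).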

How the data were processed

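RNA of 3 sorted fractions was measured in 6 libraries. Per the submitters' processing notes, the authors used HTSeq 0.5.4p3, TopHat2 2.0.8b, Bowtie2 2.1.0 and cutadapt 1.2.1 (roles and order not listed) with build GRCm38, and per the labels' protocols RNA was amplified before sequencing. They deposited raw counts per gene, used here as deposited, and RPKM values for 16105 genes (42 of the 44 genes), whose further processing is not given in the sources used here: no value is 0 and the largest value is the same in all 6 columns. Reads of amplified RNA carry no molecular identifiers and can be copies of 1 molecule, so counting intervals and floors (95%, 3 counts) cover counting error only. All counts stand on lines with a gene identifier, and 36723 identifiers matched GENCODE M21, which gave exon lengths and positions. Levels and shares per kilobase divide by all exon bases of a gene. Whether reads of amplified RNA cover that length evenly was not tested, so the order of paralogues per kilobase rests on it.

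Counts were tested with edgeR 4.0.16 (R 4.3.3; filterByExpr, minimum count 10; TMM; robust quasi-likelihood fit of 1 mean per fraction to all 6 libraries, 3 residual degrees of freedom, two-sided). Standard errors are the log2 fold change over the root of F, and the biological coefficient of variation was 13.5%. Scripts were tested on simulated data. The alternatives were DESeq2 1.42.0, upper-quartile and library-size scaling, no filter, minimum count 50, the replicate number as a block, 2 fractions alone, limma 3.58.1 on log2(RPKM + 1) and leaving out each library. Exact permutation of 2 against 2 libraries cannot pass 0.05 and was not used.

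The 44 genes, the further lists and the markers were chosen with earlier results of these data known. Named were all 44 genes, the sorting genes and, of each further list, up to 3 genes per direction with the largest change past the threshold and a mean of at least 5 CPM. Of these, 1 gene is not reported here. Pxylp1 was not matched by symbol. A planned count of chain attachment sites in the core proteins was not run.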

Additional observations from a re-analysis of the deposited data

How the results depend on the processing

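Of the calls between PDGFRa-only and PECAM1-only, 19 of 24 higher and 5 of 8 lower genes kept their call and direction in every setting that tested them. That was 14 other settings for each but Sdc3, Csgalnact1, Sdc2 and Hs6st2, which a minimum count of 50 left untested. Between double-positive and PECAM1-only 15 of 18 and 0 of 2 did in all 14, and between PDGFRa-only and double-positive 1 of 9 and 0 of 3 (3 of 9 over the settings that use counts). Between PDGFRa-only and PECAM1-only the lower count was 4 with a minimum count of 50, where fewer genes were tested. Between double-positive and PECAM1-only it was 0 with DESeq2 and 4 with upper-quartile scaling, library-size scaling or RPKM. For PDGFRa-only against double-positive the lower count was 1 with DESeq2, a minimum count of 50 or RPKM, and the higher count was 1 with RPKM. Leaving out each library gave 21 to 24 higher and 6 to 8 lower in the first comparison, 15 to 24 and 0 to 3 in double-positive against PECAM1-only, and 3 to 10 and 0 to 3 in PDGFRa-only against double-positive. In double-positive against PECAM1-only, the lower calls of Sdc1 and Extl1 were lost without PECAM1-only library 1 or double-positive library 1. In PDGFRa-only against double-positive, the lower calls of Gpc1, Sdc2 and Sulf1 were lost without double-positive library 2. The higher calls of Gpc6, Srgn, Ext2, Hs6st1, Chpf and Chst15 in that comparison were lost with either double-positive library left out. Only Hs6st1 changed direction, at -0.025 between PDGFRa-only and PECAM1-only in RPKM. The cause was not tested.

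The labels do not say whether the replicate numbers pair the libraries, and the main fit has no block. Deviations of same-numbered libraries correlated with r = -0.03, 0.13 and 0.18. With 2 libraries per fraction these values cannot decide whether a pairing exists. The fit with a replicate block called 24 higher and 8 lower, 22 and 3, and 11 and 3 genes in the 3 comparisons. The gains were Extl3, Glce, Papss1, Papss2 and, as lower, Chsy1 in double-positive against PECAM1-only (adjusted p of 0.0160 to 0.0475), and B3gat3 (0.0414) and Sdc4 (0.0415) in PDGFRa-only against double-positive. Library-size scaling moved the median of all genes to -0.28 and -0.22 (PDGFRa-only and double-positive against PECAM1-only) and upper-quartile scaling to -0.20 and -0.17. Genes with 1 to 4 counts in a fraction (Extl1, Sdc2, Hs6st2, Hs3st1, Hs3st3a1, Csgalnact1) have a fold that depth limits.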
